A study of Mus musculus with 9 samples.

Results

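Amino acid and taurine transporters of the plasma membrane were followed through the differentiation of 3T3-L1 cells, a line of mouse fibroblast-like cells that turn into lipid-storing adipocytes when induced. The 9 genes are Slc36a2, Slc7a10, Slc1a3, Slc1a5, Slc38a1, Slc38a2, Slc38a4, Slc43a1 and Slc6a6. They were found by gene symbol among the 19094 genes listed in at least 1 sample, and they had been chosen by their expected counts and FPKM at the 3 stages. Their levels and the changes between stages are therefore given as a description, without a test. Of the 9 genes, 8 were matched and all 8 passed the filter on low counts, Slc36a2 through its later stages, while Slc7a10 was not analysed here.

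Preadipocytes at day 0 had not yet received the induction medium of dexamethasone, IBMX and insulin. Cells at day 4 were induced for 2 days and then kept for 2 days in a maintenance medium containing insulin, and those at day 8 were kept in that medium for 4 days longer. Each stage had 3 RNA-seq samples of this 1 cell line, and the sequenced RNA was a mixture of RNA from cells of a stage, so the spread between samples may be technical only. The total per sample was between 18216114 and 20452144 expected counts. At this depth a 0, which also stands for a gene without a line in a sample, allows a level of up to 3 counts. That is between 0.141 and 0.158 counts scaled to the TMM-normalized library size (CPM). Day 4 against day 0 is called the early phase, day 8 against day 4 the late phase and day 8 against day 0 the whole process. In bulk RNA, fewer cells of a type and less RNA per cell cannot be told apart.

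The stage labels were checked against marker genes. All 10 adipocyte markers rose in the early phase by edgeR's quasi-likelihood test, among them Fabp4, a fatty acid binding protein, from 9.52 to 4052 FPKM (a level scaled to gene length and sequencing depth). The adipocyte markers summed to 146 ± 2.82 FPKM at day 0, then 7442 ± 1340 and 9670 ± 452 FPKM at the later stages (SD, n = 3). At day 4 the sum was 6162 FPKM in replicate 1, 7329 in replicate 2 and 8835 in replicate 3, a wider spread than at the other stages. Of the 8 fibroblast markers, Dlk1, which encodes the preadipocyte factor Pref-1, and Ly6a were called lower in the early phase, while Pdgfra rose by less than the fold threshold, from 59.6 to 102 FPKM (log2 fold change 0.84, adjusted p = 4.34e-10). Dlk1 rose again in the late phase, from 181 to 415 FPKM (log2 fold change 1.24, adjusted p = 9.35e-11), and the summed level of the 8 markers was 5439, 3888 and 4512 FPKM at the 3 stages. The sample labels give adipocytes as the cell type at all stages, although at day 0 Adipoq, which encodes adiponectin, was at 0.503 FPKM on average and Lep was at 0. The extraction text of the labels speaks of DRG, letters often used for dorsal root ganglion, the tissue that holds sensory neurons, so markers of that tissue were read as well. None of the 6 sensory neuron markers passed the count filter, and their summed level was at most 0.8 FPKM in any sample, with between 1 and 4 of the 6 at 0. Prph had the highest mean at day 0 (0.367 FPKM), Tubb3 at day 4 (0.06 FPKM) and Calca at day 8 (0.25 FPKM). Among the Schwann and glial markers, Sox10, Gfap and Aqp4 did not pass the count filter either, and Mbp was at 0.263, 0.203 and 0.263 FPKM on average at the 3 stages. The 6 macrophage markers summed to at most 4.04 FPKM and the 4 endothelial markers to at most 0.5 FPKM.

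Amino acids cross the plasma membrane through solute carriers, which differ in the amino acids they take and in the gradient that drives them. System A carriers bring in small amino acids such as alanine and glutamine together with sodium, system L carriers exchange or release large ones such as leucine, and carriers of the SLC1 family move glutamate or exchange alanine, serine, cysteine and glutamine. Adipocytes take up glutamine and branched-chain amino acids, and the taurine carrier concentrates an amino acid that is not built into protein. The products of Slc7a10 (ASC-1), Slc36a2 (PAT2) and P2rx5 are known as surface proteins of white or brown adipocytes.

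The 8 transporters split into 4 that were higher and 4 that were lower in differentiated cells. Slc36a2, Slc1a3, Slc1a5 and Slc43a1 were higher in every sample at day 4 and at day 8 than in any sample at day 0. Slc38a1, Slc38a2, Slc38a4 and Slc6a6 were lower in every sample at both later stages than in any sample at day 0. The summed level of the 8 genes was 271 ± 8.17 FPKM before induction, 332 ± 10.8 at day 4 and 263 ± 15.4 at day 8 (SD, n = 3). FPKM does not carry the TMM factors used in edgeR's fit. These factors were 1.037 to 1.049 at day 0 and 0.954 to 0.974 at day 8. FPKM therefore sets day 8 lower against day 0 than the fitted changes do. The sums of day 0 and day 8 overlapped and are not ranked here.

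The calls across all 13154 tested genes required a Benjamini-Hochberg adjusted p under 0.05 in edgeR's test together with a fold change above 2. In the early phase 4 of the 8 transporters were called higher, beside 9.77% of all tested genes, and 2 were called lower, beside 7.98%. In the late phase 1 was called higher, Slc36a2, beside 4.24% of all tested genes, and none was called lower, beside 2.81%. Over the whole process 3 were called higher, beside 10.3%, and 2 lower, beside 7.7%. These counts follow from how the genes were chosen and are given as a description only. Among all tested genes, 32.1% had every day 4 sample above every day 0 sample and 39.5% had every one below. For day 8 against day 4 these shares were 22.5% and 32.1%, and for day 8 against day 0 they were 30.1% and 46.3%. The shares were read from FPKM, without TMM factors. With edgeR's test and no fold threshold, 4583 genes were called higher and 4756 lower at day 8 than at day 0. The median log2 fold change of the 8 genes was 0.67 in the early phase, 0.10 in the late phase and 0.34 over the whole process, and that of all tested genes was 0.02, -0.01 and -0.02.

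**Figure D1:**
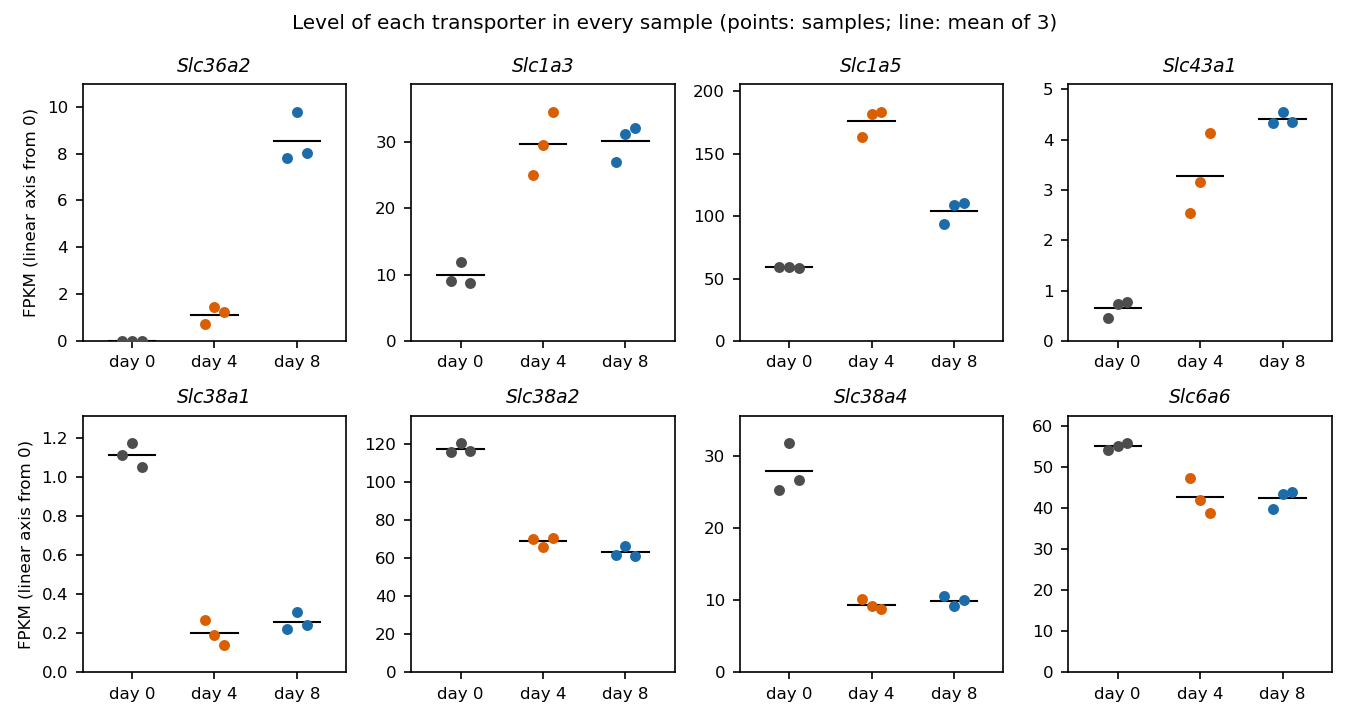
FPKM of the 8 transporters in each of the 9 samples (vertical axes, linear and starting at 0) at day 0, day 4 and day 8, with points for samples and a line for the mean of 3. The top row holds the 4 genes whose day 4 and day 8 samples all lie above day 0, and the bottom row the 4 genes whose later samples all lie below it.

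Slc36a2 encodes PAT2, which carries glycine, alanine and proline together with protons. It was at 0 in all 3 samples at day 0, at 0.71, 1.44 and 1.23 FPKM at day 4, and at 7.83, 9.78 and 8.04 FPKM at day 8. The 3 stages did not overlap, and Slc36a2 was the gene of the group with the largest late-phase change. Its mean of 2.75 ± 0.912 CPM at day 4 (SD, n = 3) was at least 17.5-fold higher than at day 0, taking as the limit there 3 counts in the shallowest day 0 library (0.157 CPM), and its 21.6 ± 2.72 CPM at day 8 was at least 137-fold higher. Between day 4 and day 8 its log2 fold change was 2.97 ± 0.18 (SE). The protein-coding neighbours of Slc36a2 on chromosome 11 are its relatives Slc36a3 and Slc36a1 (RefSeq, GRCm38.p6), and they had other patterns. Slc36a1, a proton-coupled carrier of lysosomes, was at 14.4 ± 0.590, 8.54 ± 0.740 and 7.24 ± 0.153 FPKM at day 0, 4 and 8 (SD, n = 3). Its log2 fold change over the whole process was -0.87 ± 0.06 (SE), with an adjusted p of 3.63e-09 in edgeR's test. Slc36a3 had 1 count in the 9 samples together. Of the 50-base stretches of Slc36a2 transcripts, 2.75% also occur in Slc36a1.

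Slc1a3 encodes EAAT1, or GLAST, the sodium-driven carrier of glutamate and aspartate best known from astrocytes, and thus carries acidic and not neutral amino acids. It was at 8.97, 11.95 and 8.8 FPKM at day 0, at 24.98, 29.6 and 34.52 FPKM at day 4, and at 26.92, 31.26 and 32.06 FPKM at day 8. Day 0 lay apart from both later stages, and day 4 and day 8 overlapped. The log2 fold change was 1.66 ± 0.12 (SE) in the early phase and 0.06 ± 0.11 in the late phase. Of the astrocyte markers, Aqp4 was at 0 in all samples at day 0 and day 4 and had counts in 2 samples at day 8, while Gfap was at 0.05, 0.157 and 0.24 FPKM on average at the 3 stages and was higher in every later sample than in any day 0 sample. Neither passed the count filter, and their part in the level of Slc1a3 was not tested.

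Slc1a5 encodes ASCT2, which exchanges glutamine and other small neutral amino acids. It was at 59.19, 59.49 and 58.43 FPKM at day 0, at 163.76, 181.65 and 183.52 FPKM at day 4, and at 93.94, 108.83 and 110.39 FPKM at day 8. Each stage lay apart from the other two, with the peak at day 4. The log2 fold change was 1.65 ± 0.07 (SE) in the early phase, -0.71 ± 0.06 in the late phase and 0.94 ± 0.06 over the whole process, the last just under the fold threshold of 2. Without replicate 1 at day 8 it was 1.01.

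Slc43a1 encodes LAT3, a sodium-independent carrier of branched-chain amino acids and phenylalanine. It was at 0.46, 0.73 and 0.77 FPKM at day 0, at 2.54, 3.16 and 4.14 FPKM at day 4, and at 4.34, 4.55 and 4.35 FPKM at day 8. The 3 stages did not overlap, although the highest day 4 sample came close to the lowest day 8 sample. The log2 fold change was 2.38 ± 0.20 (SE) in the early phase and 0.47 ± 0.15 in the late phase. At day 4, replicate 1 was the lowest sample for Slc36a2, Slc1a3, Slc1a5 and Slc43a1, and it also had the lowest summed adipocyte markers. The part of that sample's marker level in these values was not tested, and without it the early-phase log2 fold change of Slc43a1 was 2.53.

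The 3 system A genes were lower after induction. Slc38a2 encodes SNAT2, the most abundant of them here. It was at 116.03, 120.26 and 116.2 FPKM at day 0, at 70.34, 65.8 and 70.55 FPKM at day 4, and at 61.77, 66.63 and 61.22 FPKM at day 8. Its log2 fold change was -0.70 ± 0.05 (SE) in the early phase and -0.08 ± 0.05 in the late phase, with day 4 and day 8 overlapping. Slc38a4 encodes SNAT4 and is an imprinted gene in the mouse. It was at 25.19, 31.67 and 26.58 FPKM at day 0, at 10.15, 9.23 and 8.71 FPKM at day 4, and at 10.59, 9.22 and 9.99 FPKM at day 8. Its early log2 fold change of -1.50 ± 0.08 (SE) was larger in size than that of Slc38a2, and its late one was 0.13 ± 0.09. Slc38a1 encodes SNAT1, a carrier known from neurons. It was low at every stage, at 1.11, 1.17 and 1.05 FPKM at day 0, at 0.27, 0.19 and 0.14 FPKM at day 4, and at 0.22, 0.31 and 0.24 FPKM at day 8. Its log2 fold change was -2.46 ± 0.20 (SE) in the early phase, with day 4 and day 8 overlapping. The 6 sensory neuron markers summed to 0.707, 0.117 and 0.443 FPKM on average at the 3 stages, and their part in the level of Slc38a1 was not tested. Of the 50-base stretches of Slc38a1 transcripts, 4.11% also occur in other genes, and none of those of Slc38a2 and Slc38a4 do.

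Slc6a6 encodes TauT, which takes up taurine with sodium and chloride. It was at 54.11, 55 and 55.65 FPKM at day 0, at 47.36, 41.88 and 38.68 FPKM at day 4, and at 39.8, 43.26 and 43.79 FPKM at day 8. The log2 fold change of -0.30 ± 0.07 (SE) in the early phase was the smallest of the 8 genes, and the late one was 0.03 ± 0.07.

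**Figure D2:**
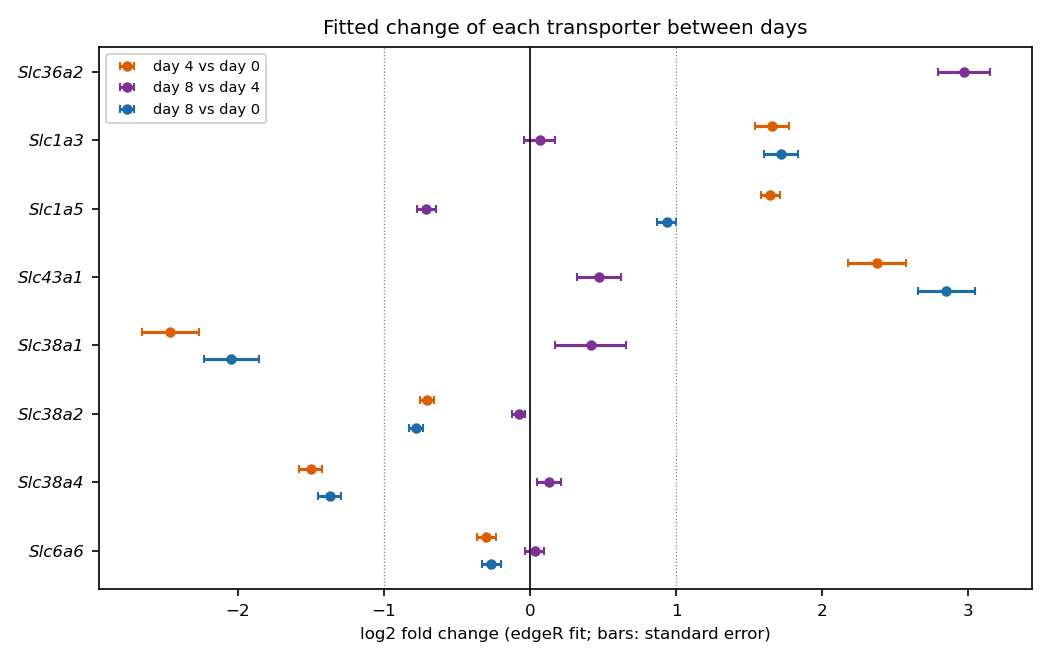
Log2 fold change of each transporter (horizontal axis, edgeR fit on all 9 samples, bars for the SE) in the early phase, the late phase and the whole process, with dotted lines at a fold change of 2. Slc36a2 is drawn for the late phase only because it was at 0 at day 0, and its late change of 2.97 stands to the right of all other late changes, which lie between -0.71 and 0.47.

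The order of the levels changed with the stage. At day 0 Slc38a2 was highest with 117 ± 2.39 FPKM, followed by Slc1a5 with 59.0 ± 0.546 and Slc6a6 with 54.9 ± 0.773 (SD, n = 3). At day 4 Slc1a5 was highest with 176 ± 10.9 FPKM, followed by Slc38a2 with 68.9 ± 2.68, and the same order held at day 8 with 104 ± 9.08 and 63.2 ± 2.98 FPKM. No neighbours in the order overlapped at day 0 or day 4. At day 8 the ranges of Slc38a4 and Slc36a2 overlapped, with means of 9.93 ± 0.687 and 8.55 ± 1.07 FPKM, and no others did.

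Set within its transport system, each gene had a different weight. The SLC1 carriers Slc1a3, Slc1a4 and Slc1a5 summed to 95.6 ± 2.33 FPKM before induction, 220 ± 14.8 at day 4 and 152 ± 12.3 at day 8 (SD, n = 3). Slc1a5 made up 61.8% of this sum at day 0, 80.3% at day 4 and 68.5% at day 8, and Slc1a3 10.3%, 13.5% and 19.7%. Slc1a4, the related carrier ASCT1 for alanine, serine and cysteine, went the other way from 26.7 to 13.6 FPKM in the early phase, with a log2 fold change of -0.91 ± 0.05 (SE) and an adjusted p of 1.8e-10. It then stood at 17.8 FPKM at day 8, a late log2 fold change of 0.44 ± 0.05 with an adjusted p of 5.38e-06. System A summed to 146 ± 5.83, 78.5 ± 2.89 and 73.4 ± 2.46 FPKM at the 3 stages. Slc38a2 made up 80.3%, 87.8% and 86.1% of it, Slc38a4 19.0%, 11.9% and 13.6%, and Slc38a1 under 1% at every stage. System L, taken as Slc7a5, Slc7a8, Slc43a1 and Slc43a2, summed to 162 ± 10.2, 102 ± 2.08 and 105 ± 3.10 FPKM. Slc7a5, which encodes LAT1, made up 97.7%, 91.6% and 91.9% of it, and Slc43a1 0.409%, 3.21% and 4.22%.

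**Figure D3:**
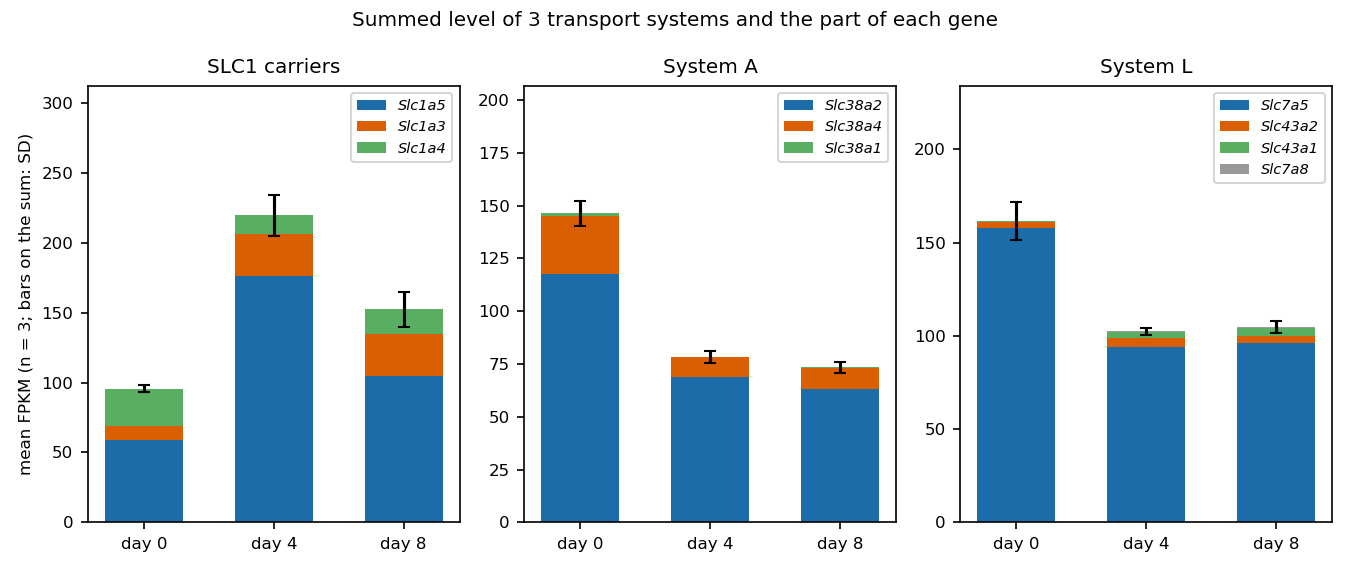
Mean FPKM (vertical axis, linear, stacked by gene) of the SLC1 carriers, system A and system L at day 0, day 4 and day 8, with bars for the SD of the sum over 3 samples. The SLC1 sum is highest at day 4 (220 FPKM), while system A and system L are highest at day 0 (146 and 162 FPKM).

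Slc38a1, Slc38a2 and Slc38a4 follow each other as protein-coding genes on chromosome 15 (RefSeq, GRCm38.p6), and all 3 were lower at day 4 and day 8 than at day 0. Promoters of Slc38a2 and Slc38a4 from this locus are shown beside those of Slc1a3 and Slc43a1, which were higher, so that the windows of genes with opposite patterns can be read together. Each is the 250 bases before the annotated start, 5′ to 3′ in the direction of the gene, from RefSeq on GRCm38.p6, and for Slc38a4 it is the first of 3 annotated starts. A stretch of 30 bases shortly after the start was found in a GENCODE vM21 transcript of the gene for Slc38a2, Slc38a4 and Slc43a1, and in none for Slc1a3. Capitals mark the GC box GGGCGG or its reverse complement CCGCCC.
Slc38a2 (chr15:96699729-96699978, minus strand): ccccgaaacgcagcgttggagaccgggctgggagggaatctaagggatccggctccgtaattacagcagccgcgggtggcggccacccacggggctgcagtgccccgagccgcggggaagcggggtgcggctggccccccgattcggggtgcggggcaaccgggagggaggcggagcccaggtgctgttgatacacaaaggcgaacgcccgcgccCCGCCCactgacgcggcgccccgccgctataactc
Slc38a4 (chr15:97055957-97056206, minus strand): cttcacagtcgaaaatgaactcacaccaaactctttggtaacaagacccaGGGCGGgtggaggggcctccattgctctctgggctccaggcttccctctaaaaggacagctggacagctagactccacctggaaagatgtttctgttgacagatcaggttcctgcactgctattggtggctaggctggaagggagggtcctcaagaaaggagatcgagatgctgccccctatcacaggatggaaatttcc
Slc1a3 (chr15:8710808-8711057, minus strand): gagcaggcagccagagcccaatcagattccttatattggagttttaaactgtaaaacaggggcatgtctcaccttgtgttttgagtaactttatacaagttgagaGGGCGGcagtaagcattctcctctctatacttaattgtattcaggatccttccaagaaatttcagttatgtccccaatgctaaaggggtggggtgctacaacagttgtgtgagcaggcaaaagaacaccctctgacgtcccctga
Slc43a1 (chr2:84840073-84840322, plus strand): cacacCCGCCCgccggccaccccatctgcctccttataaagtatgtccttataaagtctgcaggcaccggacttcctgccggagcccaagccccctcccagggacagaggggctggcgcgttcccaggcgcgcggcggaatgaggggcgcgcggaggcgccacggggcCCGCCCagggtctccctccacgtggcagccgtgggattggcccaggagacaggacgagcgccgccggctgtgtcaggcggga
The windows differed in base composition, with a G and C content of 72% for Slc38a2, 52.8% for Slc38a4, 44.8% for Slc1a3 and 70.8% for Slc43a1. These 4 windows held a GC box, which is found in 32.7% of 32851 promoter windows of this length, while of the other starts of Slc38a4 the second held one and the third did not. Its first base lay 35 bases before the start in Slc38a2, 200 in Slc38a4, 145 in Slc1a3, and 245 and 82 in Slc43a1. Both strands were also searched for TGATGNAA, the composite element of C/EBP and ATF factors (3.45% of all windows), TTGCNNAA, a C/EBP site (9.56%), TGACGTCA, the cyclic AMP response element (1.55%), and AGGTCA, a half-site of nuclear receptors (14%). None of these letters occurred in the 4 windows, and no motif contains another.

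For each transporter the tested genes with the most similar pattern were found by Pearson's r of log2 CPM over the 9 samples, taken over the 11466 genes whose log2 CPM averaged 1 or more. The samples of a stage share that stage, so r mostly describes the shape over the 3 stages. Nearest to Slc36a2 were Mmd (r = 0.9993), Acad11 (0.9993) and Acbd4 (0.9988), and 107 genes had an r above 0.99 with it. Mmd was at 12.5, 54.9 and 132 FPKM at day 0, 4 and 8, so it was present before induction, unlike Slc36a2. Nearest to Slc1a3 were Timm23, Ppa1 and Insig1 (r between 0.9963 and 0.9971). Nearest to Slc1a5 were Rnpep, Aldh4a1 and Il17rc (r between 0.9953 and 0.9956), all highest at day 4. Nearest to Slc43a1 were Wfdc12, Atp5f1 and Isoc2a (r between 0.9944 and 0.9969). Among the lower genes, Slc38a1 was nearest to Usp27x, Nrd1 and Lrp12, Slc38a2 to Pcdh19, Uba6 and AI314180, and Slc38a4 to Sepw1, Gtse1 and Dhx15, with r of at least 0.9942. Slc6a6 had no gene with an r above 0.99, its nearest being Pinx1 (0.9653), Srrm4 and Ptch1.

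The other amino acid transporters of the plasma membrane were lower in sum after induction, at 439 ± 19.0, 293 ± 6.85 and 302 ± 7.56 FPKM at the 3 stages (SD, n = 3). Of 39 listed genes 30 were matched and 16 passed the count filter. This list and those of organelle transporters and enzymes were chosen with earlier results of these data known. Their shares are therefore given as a description. In the early phase 2 were called higher and 3 lower, in the late phase 1 higher and 2 lower, and over the whole process 3 higher and 3 lower. The early calls were 12.5% and 18.8% of the 16 genes, beside 9.77% and 7.98% of all tested genes, the late ones 6.25% and 12.5%, beside 4.24% and 2.81%, and those of the whole process 18.8% each, beside 10.3% and 7.7%. The median log2 fold change of the 16 genes was 0.21 (early) and -0.38 (whole process), beside 0.02 and -0.02 for all tested genes.

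Slc6a9, which encodes the glycine carrier GlyT1, fell in the early phase. It was at 29.71, 27.6 and 25.3 FPKM at day 0, at 6.67, 6.96 and 5.84 FPKM at day 4, and at 9.31, 9.3 and 9.2 FPKM at day 8. The early log2 fold change was -2.02 ± 0.07 (SE, adjusted p = 6.87e-13), and the stages did not overlap. Slc7a11, which encodes the cystine and glutamate exchanger xCT, fell from 1.80 to 0.377 FPKM, with a log2 fold change of -2.19 ± 0.13 (SE, adjusted p = 3.42e-10). The remaining called genes, Slc7a8, Slc16a10, Slc6a14, Slc6a17, Slc6a18 and Slc7a3, stayed under 1 FPKM on average at every stage and are named here for completeness. For Slc16a10 the log2 fold change over the whole process was 1.16 ± 0.20 (SE, adjusted p = 7.21e-05) on the counts, while its FPKM of day 0 and day 8 overlapped.

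Beside Slc1a4 and Slc6a9, described above, 4 further abundant genes of this list were chosen for naming after their values were seen. Slc3a2, the heavy chain that brings LAT1 to the membrane, was at 180 FPKM at day 0 and 132 at day 4, with a log2 fold change of -0.38 ± 0.05 (SE, adjusted p = 1.49e-06). Slc7a5 was at 158 and 93.8 FPKM, with a log2 fold change of -0.69 ± 0.05 (SE, adjusted p = 1.12e-08). Slc7a1, the cationic amino acid carrier CAT1, was at 19.5 and 9.66 FPKM, with a log2 fold change of -0.95 ± 0.06 (SE, adjusted p = 8.98e-10). Slc7a6, a carrier of cationic and neutral amino acids, went from 18.5 to 26.3 FPKM, with a log2 fold change of 0.58 ± 0.06 (SE, adjusted p = 2.02e-07). These 4 genes changed by less than the fold threshold of 2, and in 3 of them the direction was that of the system A genes.

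**Figure D4:**
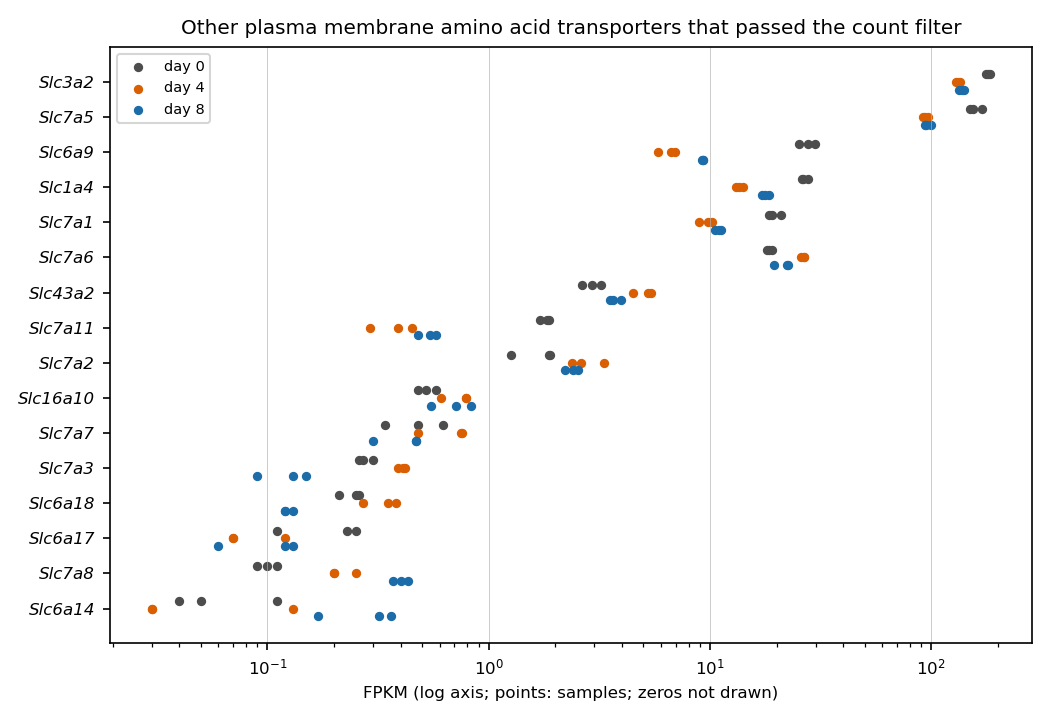
FPKM (horizontal axis, logarithmic) of the 16 other plasma membrane amino acid transporters that passed the count filter, with a point for each of the 9 samples, coloured by stage, and samples at 0 not drawn. Slc3a2, Slc7a5, Slc6a9, Slc1a4 and Slc7a1 lie to the left of their day 0 points at both later stages, and the genes at the bottom stay under 1 FPKM.

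Amino acid transporters of mitochondria and lysosomes were taken as a list of their own. Of 19 listed genes 17 were tested, 3 were called higher and none lower in the early phase, none in the late phase, and 3 higher and 1 lower over the whole process. These were 17.6% and 0% of the 17 genes in the early phase, beside 9.77% and 7.98% of all tested genes, 0% and 0% in the late phase, beside 4.24% and 2.81%, and 17.6% and 5.88% over the whole process, beside 10.3% and 7.7%. The median log2 fold change was 0.18 (early), -0.19 (late) and -0.16 (whole process), beside 0.02, -0.01 and -0.02 for all tested genes. For the 0 lower calls of the early phase, 5 genes were lower at an unadjusted p under 0.05 in edgeR, and for the late phase 1 was higher and 9 were lower, while DESeq2, edgeR's exact test and limma also called 0 in each case. The 3 that rose are mitochondrial. Slc25a29, a carrier of basic amino acids, rose from 3.74 to 12.7 FPKM in the early phase, with a log2 fold change of 1.82 ± 0.10 (SE, adjusted p = 9.56e-11). Sfxn1, the serine carrier, rose from 17.7 to 51.7 FPKM, with a log2 fold change of 1.61 ± 0.08 (SE, adjusted p = 1.97e-11). Slc25a22, a glutamate carrier, rose from 13.3 to 28.8 FPKM, with a log2 fold change of 1.16 ± 0.07 (SE, adjusted p = 1.85e-10). Slc25a13, the aspartate and glutamate carrier citrin, fell from 5.14 at day 0 to 2.32 FPKM at day 8, with a log2 fold change of -1.03 ± 0.12 (SE, adjusted p = 9.69e-07). This call was lost without replicate 2 at day 0 or replicate 1 at day 8.

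Enzymes that make or use the carried amino acids were taken as the last list. Of 33 listed genes 31 were tested, 8 were called higher and 2 lower in the early phase, 0 higher and 2 lower in the late phase, and 8 higher and 1 lower over the whole process. The early calls were 25.8% and 6.45% of the 31 genes, beside 9.77% and 7.98% of all tested genes, the late ones 0% and 6.45%, beside 4.24% and 2.81%, and those of the whole process 25.8% and 3.23%, beside 10.3% and 7.7%. For the 0 higher calls of the late phase, 12 genes were higher at an unadjusted p under 0.05 in edgeR, and DESeq2, edgeR's exact test and limma also called 0. The median log2 fold change of the 31 genes was 0.12 (early) and 0.34 (whole process), beside 0.02 and -0.02 for all tested genes.

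Glul, the glutamine synthetase, was at 5.98, 7.1 and 6.7 FPKM at day 0, at 262.19, 292.43 and 298.8 FPKM at day 4, and at 77.65, 83.73 and 83.19 FPKM at day 8. Its early log2 fold change was 5.50 ± 0.08 (SE, adjusted p = 1.25e-17) and it then fell by 1.76 ± 0.06 on the log2 scale (adjusted p = 2.29e-12). Its highest stage was that of Slc1a5, which carries glutamine. Gpt, an alanine aminotransferase, was at 1.68, 1.49 and 1.82 FPKM at day 0, at 21.59, 26 and 27.31 FPKM at day 4, and at 42.58, 48.07 and 46.96 FPKM at day 8. Its log2 fold change over the whole process was 4.89 ± 0.11 (SE, adjusted p = 3.86e-15), and like Slc36a2 it was highest at day 8. Bcat1, the cytosolic branched-chain aminotransferase, fell from 16.7 to 2.70 FPKM in the early phase, with a log2 fold change of -2.56 ± 0.08 (SE, adjusted p = 1.51e-13). Bcat2, its mitochondrial counterpart, named after its values were seen, rose from 20.9 to 173 FPKM, with a log2 fold change of 3.09 ± 0.09 (SE, adjusted p = 5.29e-14). Of the 4 system L genes, Slc7a5 was lower at day 4 than at day 0, and Slc43a1, Slc43a2 (2.93 to 5.06 FPKM) and Slc7a8 were higher.

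Prodh, which starts the breakdown of proline, was at 0.0767, 1.28 and 0.62 FPKM at day 0, 4 and 8. Its early rise had a log2 fold change of 4.12 ± 0.36 (SE, adjusted p = 3.7e-08). Its late fall only just passed the fold threshold of 2 (adjusted p = 0.0029), a call kept in 8 of 19 alternatives. Among the samples left out, day 4 replicates 2 and 3 and day 8 replicates 1 and 3 each decided it. Shmt2, the mitochondrial serine hydroxymethyltransferase, fell from 89.5 to 42.5 FPKM in the early phase, with a log2 fold change of -1.01 ± 0.07 (SE, adjusted p = 1.16e-09). That call was lost without replicate 2 at day 0 or replicate 3 at day 4.

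Enzymes of taurine synthesis on the list are given beside the taurine carrier Slc6a6. Fmo1, a flavin monooxygenase that can oxidize hypotaurine to taurine, was at 0.04, 0.02 and 0.12 FPKM at day 0, at 7.06, 7.09 and 6.85 FPKM at day 4, and at 6.33, 5.58 and 6.88 FPKM at day 8, and its early log2 fold change was 6.76 ± 0.23 (SE, adjusted p = 2.7e-13). Cdo1, the cysteine dioxygenase, was at 6.16, 7.45 and 8.8 FPKM at day 0, at 107.9, 117.99 and 110.72 FPKM at day 4, and at 60.11, 66.92 and 59.01 FPKM at day 8. Its early log2 fold change was 3.98 ± 0.09 (SE, adjusted p = 2.93e-15). Csad, the cysteine sulfinate decarboxylase, went from 37.5 to 73.7 FPKM in the early phase, with a log2 fold change of 1.04 ± 0.05 (SE, adjusted p = 1.44e-11). Cdo1 and Csad were named after their values were seen. Ado, the cysteamine dioxygenase, was at 11.6, 10.3 and 9.72 FPKM, and Gadl1 did not pass the count filter.

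**Figure D5:**
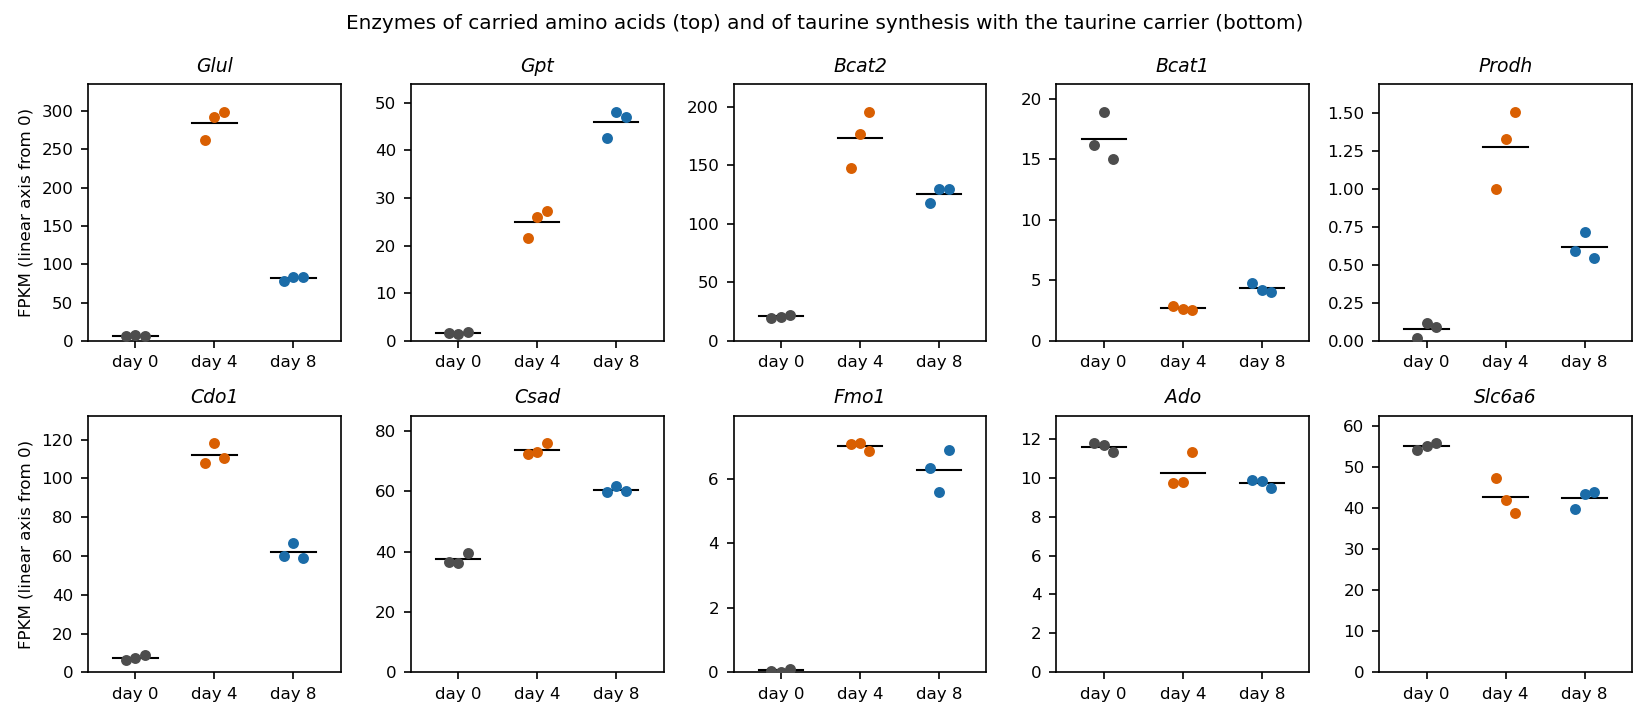
FPKM (vertical axes, linear and starting at 0) of 5 enzymes of glutamine, alanine, branched-chain amino acids and proline (top) and of 4 enzymes of taurine synthesis with the taurine carrier Slc6a6 (bottom) in each of the 9 samples, with a line for the mean of 3. Glul peaks at day 4 (284 FPKM), Bcat1 and Bcat2 go opposite ways, Cdo1, Csad and Fmo1 are lowest at day 0, and Ado and Slc6a6 are highest there.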

How the data were processed

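RNA of 3T3-L1 cells was sequenced at day 0, 4 and 8, with 3 replicates per day. The authors filtered the reads, mapped them with HISAT/Bowtie2 and quantified genes by RSEM, and the submitters' processing notes name CASAVA 1.4 and Bowtie2. The genome build of the files is not given in the sources used here. The deposited expected counts are RSEM estimates per gene without normalization, 29.8% of them not whole. FPKM, also deposited, is the authors' level per gene length and depth, and was used without TMM factors. A gene without a line in a sample was taken as 0 there. The labels name a BGIseq500 library kit beside Illumina protocols, and speak of DRG, whereas the study's methods describe 3T3-L1 cells on an Illumina platform.

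Expected counts were rounded and fitted in R 4.3.3 with edgeR 4.0.16 (filterByExpr by day, TMM factors, glmQLFit and glmQLFTest, 1 coefficient per day, prior count of 2), all 9 samples in one model. Standard errors were derived from the F statistic, as the absolute log2 fold change over its square root. Samples with between 18216114 and 20452144 counts set the precision, and limits and bounds at 3 counts cover counting error only. Older symbols were matched through NCBI gene IDs. Promoters come from RefSeq (GRCm38.p6) and shared 50-base stretches from GENCODE vM21 transcripts.

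The transporters and gene lists were chosen with earlier results of these data known. The text names all transporters and, from each list, comparison and direction, up to 3 called genes with the largest change and at least 1 FPKM on a day, then the 3 genes most like each transporter and the cell type markers, of which 2 genes are not reported here. Alternatives were RLE factors, library size alone, no filter, at least 10 counts in every sample, DESeq2 1.42.0, edgeR's exact test, limma 3.58.1 on log2(FPKM + 1) and log2(FPKM + 0.1), the 2 days compared alone, a replicate block, no fold threshold, and each sample left out. The model was tested on simulated counts with 200 changed genes, of which 192 were recovered.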

Additional observations from a re-analysis of the deposited data

How the results depend on the processing

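The log2 fold changes of the 8 transporters kept their sign under every alternative run, except the late-phase changes of Slc1a3 (18 of 19 alternatives, lowest -0.05 without replicate 1 at day 4) and Slc6a6 (15 of 19, from -0.04 to 0.12), both within the spread between samples. Slc36a2 could not be fitted with at least 10 counts in every sample. With limma on log2(FPKM + 1), which understates low genes, its changes were 1.07, 2.18 and 3.25 in the early phase, the late phase and the whole process, those of Slc38a1 were -0.82, 0.07 and -0.75, and the early and whole-process changes of Slc43a1 were 1.36 and 1.72. Calls of all tested genes (higher, then lower) were 1285 and 1050 in the early phase, 558 and 370 in the late phase and 1356 and 1013 over the whole process. With limma on log2(FPKM + 1) they were 708 and 565, 224 and 136, and 753 and 528. Without the fold threshold they were 4676 and 4430, 2964 and 2989, and 4583 and 4756. With at least 10 counts in every sample they were 831 higher in the early phase, and 310 higher and 173 lower in the late phase.

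For the other plasma membrane transporters, early higher calls (2) became 1 with library size alone and with at least 10 counts, 0 with limma at either pseudocount, and 1 to 2 with single samples left out (1 without replicate 3 at day 0 or day 4). Late higher calls (1) became 0 with at least 10 counts and with limma on log2(FPKM + 1), and were 1 to 2 with samples left out (2 without day 4 replicate 1). Late lower calls (2) became 1 with at least 10 counts and with limma on log2(FPKM + 0.1), and 0 with limma on log2(FPKM + 1). Whole-process higher calls (3) became 1 with at least 10 counts and 0 with limma on log2(FPKM + 1), and lower calls (3) became 5 with no filter, 1 with limma on log2(FPKM + 1) and 3 to 5 with samples left out (5 without any 1 of the day 4 replicates or day 8 replicate 2). Without the fold threshold the calls (higher, then lower) were 5 and 7, 6 and 4, and 6 and 8 in the early phase, the late phase and the whole process.

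For the organelle transporters, the whole-process lower call (1) became 0 with limma on log2(FPKM + 1) and was 0 to 1 with samples left out. Without the fold threshold the calls were 9 and 5 in the early phase, 8 lower in the late phase, and 6 and 6 over the whole process. For the enzymes, early lower calls (2) were 1 to 2 with samples left out, late higher calls (0) became 1 with no filter, and late lower calls (2) became 1 with RLE factors, no filter, at least 10 counts, DESeq2 and the replicate block, and were 1 to 3 with samples left out. Whole-process higher calls (8) became 5 with at least 10 counts, and lower calls (1) became 2 with library size alone, no filter and limma at either pseudocount. Without the fold threshold the enzyme calls were 14 and 9, 12 and 9, and 17 and 10. The filter of 10 counts removes genes at 0 on a day by construction. The cause of the other shifts was not tested.

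The replicate numbers did not pair the samples. Deviations of same-numbered samples from the day means had correlations between -0.0348 and 0.075 (9 pairs, mean 0.0308). For differently numbered samples they lay between -0.1 and 0.0628 (18 pairs, mean -0.0154). The replicate block gave 1287 higher and 1053 lower calls in the early phase, 556 and 367 in the late phase and 1360 and 1010 over the whole process. A 0 allows a level of up to 0.141 to 0.158 CPM (3 counts) in a sample.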

Other observations

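Markers of thermogenic adipocytes were read beside Slc36a2, since PAT2 is known from brown and beige adipocytes. Ucp1, the uncoupling protein, was at 0 FPKM on average at day 0 and day 8 and at 0.04 at day 4. Ucp1, Cidea, Dio2 and Prdm16 did not pass the count filter. Cox8b, a subunit of cytochrome c oxidase, was at 0 in all 3 samples at day 0, at 1.84 FPKM at day 4 and at 12.2 FPKM at day 8. At day 8 it was at least 28.5-fold above the limit of 3 counts in the shallowest day 0 library, and its late log2 fold change was 2.77 ± 0.23 (SE, edgeR adjusted p = 2.31e-07). Ppargc1a was at 3.66, 2.34 and 4.48 FPKM at day 0, 4 and 8. P2rx5 was low at every stage, at 0.223, 0.427 and 0.327 FPKM, and 2.01-fold higher at day 4 than at day 0 (edgeR adjusted p = 0.0181). Elovl3 was at 0, 0.427 and 0.31 FPKM.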
